A study of Oryza sativa with 12 samples.

Results

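Cold-treated leaves of the rice (Oryza sativa) cultivars Kongyu131 and Dongnong422 were compared with each other by their long non-coding RNAs (lncRNAs). The comparison rests on 6 of the 12 libraries of the series, namely the 3 libraries of cold Dongnong422 leaves and the 3 of cold Kongyu131 leaves. All plants were raised in a natural environment and sampled at the booting stage. Cold plants stood in an incubator at 17 °C for 13 days under 16 h of light and 8 h of darkness, and a leaf per bucket was then taken at random and frozen. The other 6 libraries, 3 controls of each cultivar, served only to estimate the spread and to show whether a difference was also there without the treatment. Where the controls were kept is not stated separately. The labels do not say whether the replicates of a group were separate plants. The p-values therefore set a difference only against the spread among these libraries, and that spread may be technical.

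Long non-coding RNAs are long transcripts that do not encode a protein. Long intergenic RNAs (lincRNAs) are transcribed between genes, and antisense lncRNAs from the strand opposite another gene, whose expression they can alter. In Arabidopsis, antisense transcripts of the flowering repressor FLC rise in the cold, and in rice a lncRNA is known to take part in photoperiod-dependent male fertility. At the booting stage pollen forms inside the leaf sheath, and cold at that time is known to lower rice fertility.

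The deposited tables list 1485 lncRNA transcripts of 1039 loci with a value in FPKM (a fragment count corrected for the length of the transcript and the size of the library). Transcripts with a mean of at least 0.1 FPKM over the 6 cold libraries were compared, which kept 1370 (784 lincRNAs and 586 antisense lncRNAs of 1010 loci) and left out 115. At the edge of that filter, LNC_000817 was kept with a mean of 0.100363 FPKM and LNC_000165 was left out with 0.0996157 FPKM. The tables pair the identifiers with no gene name, sequence or position, so what a transcript does, which gene it opposes and whether leaf markers are present could not be looked up. Transcripts are therefore called by identifier and locus.

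The first principal component of the 6 cold libraries held 67.2% of their variance and separated the cultivars. Pearson correlations between libraries were 0.865 to 0.893 within a cultivar and 0.567 to 0.614 between cultivars, over transcripts that share length and library. Kongyu131 cold replicate 3 stood apart on the second component (26.1, against −13.0 and −12.0 for the other Kongyu131 libraries). In Dongnong422 cold replicate 2, the lincRNA LNC_000712 reached 1170000 FPKM, against 260633 to 614704 FPKM in the other cold libraries. It made up 96.0% of the summed FPKM there, but also 85.7% to 93.0% in the other cold libraries and 86.4% to 91.8% in the controls. The counts of calls are therefore also given without Kongyu131 cold replicate 3 or without Dongnong422 cold replicate 2. The Dongnong422 libraries listed 1407, 1389 and 1396 transcripts above 0, and the Kongyu131 libraries 1361, 1363 and 1363. These counts do not overlap, and their difference of 35 had p = 0.1 in a two-sided exact permutation test, the smallest value that 3 against 3 libraries allow. At 1 FPKM or more the groups overlapped, with 496, 527 and 529 transcripts in Dongnong422 and 479, 467 and 531 in Kongyu131 (exact permutation p = 0.4).

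Cold leaves of the cultivars differed in 255 of the 1370 lncRNAs (18.6%). Of these, 138 (10.1% of those tested) were higher in Dongnong422 and 117 (8.54%) were lower. Of the differences, 248 were at least 2-fold on the log2(FPKM + 0.1) scale, where a difference of 1 is a doubling, 104 reached a log2 difference of 3 and 37 reached 5. Of the 147 called transcripts not listed at 0 in all 3 cold libraries of a cultivar, 140 were at least 2-fold. Among these, 16 reached 3 and 3 reached 5. For the other calls, listed at 0 in 1 cultivar, the size depends on the pseudocount of 0.1 FPKM. The same holds for low values among the 147, such as LNC_001050, at −1.06 and −6.77 with 1 and 0.01 FPKM added. The median log2 difference was 2.77 among the higher transcripts and −2.52 among the lower ones, and 1.90 over 73 and −1.93 over 74 of them once those listed at 0 in all 3 libraries of the other cultivar were left out. Over all transcripts tested it was 0.07. A transcript was called where limma's two-sided test gave p under 0.05 after Benjamini-Hochberg adjustment, and 405 transcripts had an unadjusted p under 0.05. In leaf tissue, fewer cells of a type and less RNA per cell cannot be told apart.

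**Figure D1:**
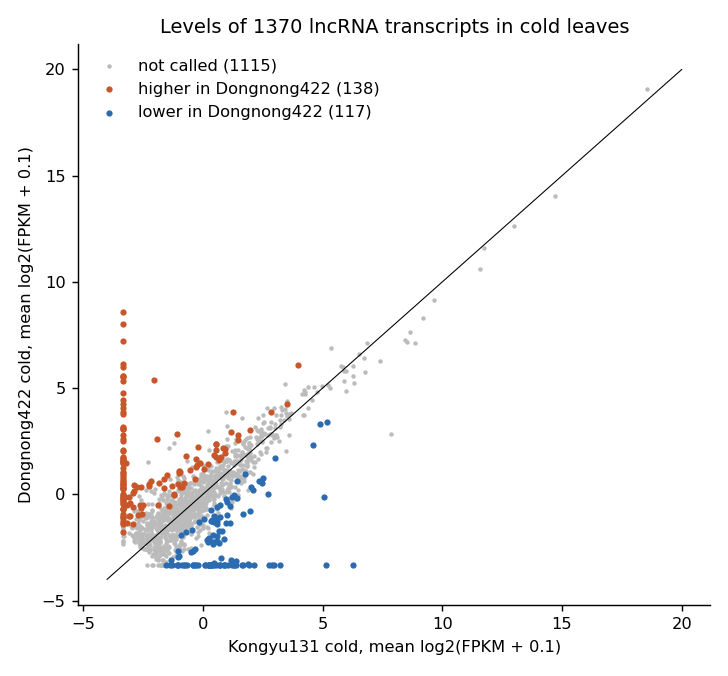
Mean log2(FPKM + 0.1) of 1370 lncRNA transcripts in the 3 cold libraries of Kongyu131 (horizontal axis) and of Dongnong422 (vertical axis); each point is a transcript and the line marks equal levels. The 138 transcripts higher in Dongnong422 lie above the line, the 117 lower ones below it, and those along the left and lower edge were listed at or close to 0 in 1 cultivar.

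Most calls remained when either library that stood apart was left out. Without Kongyu131 cold replicate 3, 246 transcripts were called, 213 of them among the 255. Without Dongnong422 cold replicate 2, 211 were called, 200 of them among the 255. In total 174 of the 255 (68.2%) kept their call and direction when each of the 12 libraries was left out in turn. The slight excess of higher over lower calls depended on scaling, with 145 higher and 124 lower after median-ratio scaling but 152 lower of 283 called after quantile normalization, which moved the median of all transcripts from 0.07 to −0.11.

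Complete separation of the libraries was more frequent than calls, but it is a weaker criterion. With 3 against 3 libraries the smallest two-sided exact permutation p is 0.1, so separation alone does not show a difference for a transcript. In 461 transcripts (33.6%) all 3 Dongnong422 cold libraries lay above (256) or below (205) all 3 Kongyu131 cold libraries, and 251 of these were called and 210 were not. Among the 1115 transcripts not called, 232 had an estimated difference of at least 2-fold, and the median half-width of the 95% confidence interval was 1.09 on the log2 scale. Over all 1370 transcripts tested, the interval lay within 1 on either side of 0, a difference of less than 2-fold, for 194 (14.2%). All 194 were among those not called. The interval lay wholly beyond 1 for 158 of the 1370.

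Many of the called transcripts were listed at 0 in every cold library of 1 cultivar. Kongyu131 had 78 such transcripts (63 lincRNAs and 15 antisense), of which 65 were called. Dongnong422 had 46 (36 lincRNAs and 10 antisense), of which 43 were called. Together they made up 108 of the 255 calls, and 124 such transcripts were tested. Of the 1246 transcripts not so listed, 147 (11.8%) were called. A transcript at 0 in 1 cultivar passes the filter only through its level in the other, and has no spread at 0. The high share called among them therefore follows in part from how they were selected. In 40 of the 78, all 3 Dongnong422 cold libraries reached 1 FPKM, with means of 1.13 to 381 FPKM (median 6.87), and in 15 all 3 reached 10 FPKM. In 19 of the 46, all 3 Kongyu131 cold libraries reached 1 FPKM, with means of 1.70 to 79.1 FPKM (median 3.07), and in 2 all 3 reached 10 FPKM. An exact 0 in an FPKM table can also be a failed estimate, so no fold is given for these transcripts.

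The strongest of them are intergenic and the sole transcript of their locus. The lincRNA LNC_001480 (locus XLOC_058068) stood at 417, 403 and 325 FPKM in the Dongnong422 cold libraries and at 0 in all 3 of Kongyu131 (limma adjusted p = 3.49e-11). The lincRNA LNC_000317 (XLOC_013809) stood at 175, 266 and 384 FPKM in Dongnong422 and at 0 in Kongyu131 (adjusted p = 3.09e-08). The lincRNA LNC_001019 (XLOC_038210), among the smallest p-values, varied little, with 74.9, 64.5 and 72.6 FPKM against 0 (adjusted p = 4.67e-11). In each of the 3, every Dongnong422 library, control leaves included, was above every Kongyu131 library, since the Kongyu131 controls were at 0 as well and the Dongnong422 controls at 339 to 603, 99.1 to 620.2 and 47.8 to 69.9 FPKM.

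The reverse pattern had lower peaks. The lincRNA LNC_000414 (XLOC_016383) stood at 73.6, 60.3 and 103 FPKM in the Kongyu131 cold libraries and at 0 in those of Dongnong422 (limma adjusted p = 2.64e-10). The lincRNA LNC_001030 (XLOC_038619) stood at 23.9, 57.0 and 32.6 FPKM against 0 (adjusted p = 2.30e-09). The Dongnong422 control libraries were likewise at 0 for both, while the Kongyu131 controls held 32.4 to 56.7 and 34.3 to 56.1 FPKM. All 5 of these calls held under each alternative setting and with each library left out.

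A listing of 0 in the cold mostly went with a listing of 0 in control leaves, which the choice of these transcripts did not use. Of the 40 transcripts with at least 1 FPKM in every Dongnong422 cold library, 37 were at 0 in all 3 Kongyu131 control libraries, and of the 19 in the other direction, 17 were at 0 in all 3 Dongnong422 control libraries. Over all listed levels, 58 transcripts were at 0 in all 6 Kongyu131 libraries and above 0 in all 6 Dongnong422 libraries, and 39 had the opposite pattern. Within the cultivar that had the RNA, the 3 cold libraries lay below the 3 controls for 10 of the 40 Dongnong422 transcripts and above them for 3. Of all 392 transcripts with at least 1 FPKM in every Dongnong422 cold library, 14.5% lay below and 21.9% above. In Kongyu131 6 of the 19 lay below and 3 above, against 21.7% and 17.7% of 350 such transcripts. These shares were not tested against each other.

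Other transcripts were above 0 in all 6 cold libraries. The lincRNA LNC_000193 (XLOC_009699) stood at 0.122, 0.835 and 0.400 FPKM in cold Kongyu131 leaves but at 7.62, 9.83 and 4.58 FPKM in those of Dongnong422, 15.1-fold higher (log2 difference 3.92, 95% confidence interval 2.41 to 5.42, limma adjusted p = 0.00143). The antisense lncRNA LNC_001193 (XLOC_046631) was steady in Dongnong422, at 1.36, 1.33 and 1.41 FPKM. In Kongyu131 it varied more for its level, at 0.214, 0.281 and 0.0850 FPKM. It was 5.21-fold higher in Dongnong422 (log2 difference 2.38, interval 1.60 to 3.16, limma adjusted p = 0.000419). Both sets of libraries are apart. The lincRNA LNC_000356, 1 of 3 transcripts of XLOC_014909, stood at 1.37, 0.703 and 1.62 FPKM in Dongnong422 and at 0.216 FPKM in Kongyu131 replicate 2, with the other Kongyu131 libraries under 0.001 FPKM (log2 difference 3.11, adjusted p = 0.000479). The antisense lncRNA LNC_000499, 1 of 2 transcripts of XLOC_019310, was highest in replicate 2, at 0.347, 2.097 and 0.704 FPKM in Dongnong422 against at most 0.0153 FPKM in Kongyu131. Its log2 difference of 3.14 (adjusted p = 0.00873) became 2.51 without Dongnong422 cold replicate 2 (adjusted p = 0.0381).

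The reverse, more RNA in cold Kongyu131 leaves, was found as well. The antisense lncRNA LNC_001018 (XLOC_038036) stood at 45.6, 24.4 and 32.3 FPKM in Kongyu131 and at 0.743, 0.932 and 0.767 FPKM in Dongnong422, 36.4-fold lower in Dongnong422 (log2 difference −5.19, interval −6.63 to −3.74, limma adjusted p = 0.000111). The lincRNA LNC_000326 (XLOC_014053) stood at 1.09, 1.44 and 1.73 FPKM against 0.211, 0.0954 and 0.0728 FPKM, 6.83-fold lower (log2 difference −2.77, interval −3.54 to −2.002, adjusted p = 0.00011). The lincRNA LNC_000340, 1 of 3 transcripts of XLOC_014634, stood at 1.62, 1.78 and 1.85 FPKM against 0.105, 0.291 and 0.0542 FPKM (interval of the log2 difference −3.98 to −2.02, adjusted p = 0.000407). In all of these the libraries of the cultivars are apart. The antisense lncRNA LNC_001050, 1 of 3 transcripts of XLOC_039629, stood at 1.07, 1.17 and 1.01 FPKM in Kongyu131 and under 0.001 FPKM in every Dongnong422 cold library (adjusted p = 0.000503).

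The size of these differences depends on the pseudocount, the amount added before the logarithm, and the calls do not. With 1 and with 0.01 FPKM added, the log2 difference was 2.50 and 4.29 for LNC_000193, 0.99 and 2.90 for LNC_001193, 1.04 and 5.37 for LNC_000356, and 0.94 and 5.88 for LNC_000499. It was −4.23 and −5.33 for LNC_001018, −1.10 and −3.50 for LNC_000326, −1.26 and −3.75 for LNC_000340, and −1.06 and −6.77 for LNC_001050.

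**Figure D2:**
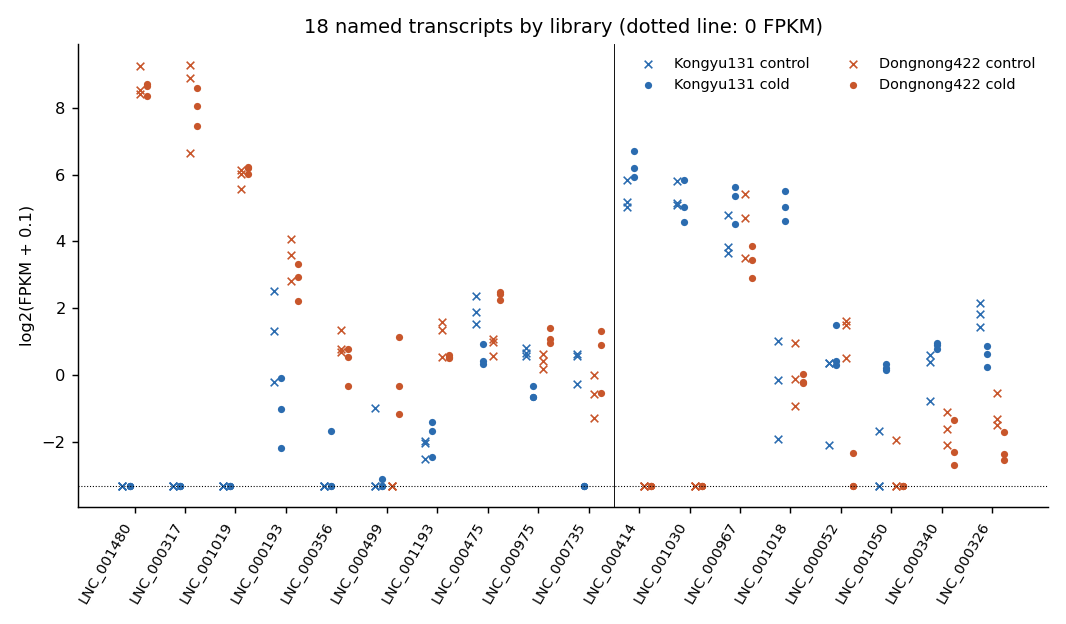
Level of 18 transcripts in every library on the log2(FPKM + 0.1) scale (vertical axis); circles are the 3 cold libraries and crosses the 3 control libraries of Kongyu131 (blue) and Dongnong422 (orange), and the dotted line is 0 FPKM. Transcripts left of the upright line were higher in cold Dongnong422 leaves and those right of it lower, and for LNC_001480, LNC_000317, LNC_001019, LNC_000414 and LNC_001030 all 6 libraries of 1 cultivar lie on the dotted line.

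Of the 20 transcripts with the highest means in the cold libraries, the lowest of them at 97.6 FPKM, 2 were called, against 18.6% of all tested: LNC_001480 and LNC_000317. The lincRNA LNC_000712 (XLOC_026914) was the most abundant, at 260633, 614704 and 354424 FPKM in the cold libraries of Kongyu131 and 412484, 1170000 and 369909 FPKM in those of Dongnong422. The lincRNA LNC_001334 (XLOC_052786) followed, at 15592, 35301 and 35688 FPKM in the former and 13388, 30321 and 12394 FPKM in the latter. The libraries of the cultivars overlap for both, and the log2 differences were 0.55 (interval −0.89 to 1.99) and −0.66 (interval −1.84 to 0.53), so both intervals include equal levels and a 2-fold difference. The lincRNA LNC_000967 (XLOC_035578) was, after LNC_000414, the most abundant of those lower in Dongnong422. It stood at 49.0, 22.9 and 40.7 FPKM in Kongyu131 and at 14.3, 10.7 and 7.34 FPKM in Dongnong422, 3.41-fold lower (log2 difference −1.77, limma adjusted p = 0.0292). That call ended without Dongnong422 cold replicate 2 or 3 (adjusted p = 0.0748 and 0.101) and without Kongyu131 cold replicate 1 or 3 (0.114 and 0.0781).

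Calls were more frequent among lincRNAs than among antisense lncRNAs, in shares that were not tested. Of 784 lincRNAs 166 were called (21.2%), 99 higher and 67 lower in Dongnong422, with a median log2 difference over all lincRNAs of 0.15. Of 586 antisense lncRNAs 89 were called (15.2%), 39 higher and 50 lower, with a median of −0.01. After quantile normalization lincRNAs were 92 higher and 87 lower, and antisense lncRNAs 39 higher and 65 lower. The classes also differed in level, with a median of 0.805 FPKM for lincRNAs and 0.607 FPKM for antisense lncRNAs, and the part of this in the shares was not tested. With the transcripts divided by mean level into 4 bins of like size, the shares in the highest bin were 21.8% of 239 lincRNAs and 23.1% of 104 antisense lncRNAs, while in the other bins lincRNAs had the higher share (13.7%, 22.0% and 27.0%, against 7.5%, 12.4% and 20.9%). The classes differed among transcripts alone in their locus, with 26.1% of 494 lincRNAs and 16.8% of 310 antisense lncRNAs called, while in loci with several the shares were 12.8% of 290 and 13.4% of 276. The sources used here do not say whether strand was used to assign reads, so reads of an antisense lncRNA and of the gene it opposes may not be told apart.

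Level and locus structure went with the share called. From the lowest to the highest of the 4 bins, 37 of 343, 59 of 342, 83 of 342 and 76 of 343 transcripts were called (10.8%, 17.3%, 24.3% and 22.2%), and the median half-width of the interval fell from 1.42 to 0.82 on the log2 scale. In the highest bin 51 were higher and 25 lower in Dongnong422, but 46 and 46 after quantile normalization. In the lowest bin 21 were higher and 16 lower, and 20 and 27 after that normalization. Of 804 transcripts that were alone in their locus 181 were called (22.5%), against 55 of 310 in loci with 2 or 3 transcripts (17.7%) and 19 of 256 in loci with 4 or more (7.42%). Transcripts alone in their locus were also more abundant, with a median of 1.14 FPKM against 0.476 and 0.359 FPKM.

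**Figure D3:**
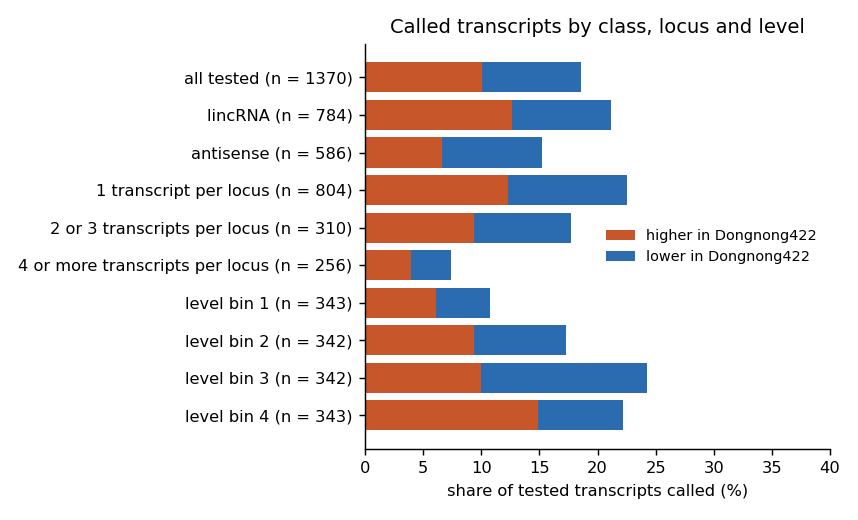
Share of tested transcripts called in cold leaves (horizontal axis, in percent) for all transcripts, both classes, loci by their number of listed transcripts, and 4 bins of mean level from lowest (1) to highest (4). Orange is the share higher and blue the share lower in Dongnong422; the whole bar is 18.6% for all transcripts, 21.2% for lincRNAs, 15.2% for antisense lncRNAs and 7.42% for loci with 4 or more transcripts.

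Within loci that hold several transcripts, calls mostly pointed 1 way. Of 206 such loci, 51 had a called transcript, against 232 of all 1010 loci (23.0%). In 17 of the 51 more than 1 was called, and in 15 of the 17 all called transcripts shared a direction. Where a single transcript was called, in 34 loci, the summed FPKM of the locus was not called in 16. Values above 0 but under 0.001 FPKM came almost only from loci with several transcripts (685 of 723 such values in the cold libraries, 94.7%), and Cufflinks, which the submitters' processing notes name, estimates how a locus's fragments were split over its transcripts.

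At 2 antisense loci, called transcripts went in opposite directions. At XLOC_014980, with 8 listed transcripts, LNC_000363 stood at 0.486, 0.816 and 0.830 FPKM in Kongyu131 and under 0.001 FPKM in each Dongnong422 cold library (limma adjusted p = 0.000531). LNC_000364 stood at 0.0397, under 0.001 and 0.0274 FPKM in Kongyu131 and at 0.778, 0.349 and 1.01 FPKM in Dongnong422 (adjusted p = 0.0105). The sum over the locus was 2.79 ± 0.323 FPKM in Kongyu131 and 3.39 ± 0.562 FPKM in Dongnong422 (SD, n = 3 each), a log2 difference of 0.26 (interval −0.32 to 0.84, limma adjusted p = 0.512). LNC_000365 of this locus was higher in Dongnong422 too, at 0.310, 0.366 and 0.540 FPKM against 0.0674 FPKM in Kongyu131 replicate 1 and under 0.001 FPKM in the others (adjusted p = 0.0227). The interval of the sum includes 0, while those of called transcripts exclude 0 by the rule for calling them. With 1 and 0.01 FPKM added the differences were −0.77 and −6.13 for LNC_000363 and 0.72 and 4.64 for LNC_000364. In control leaves LNC_000363 was lower in Dongnong422 too (limma adjusted p = 0.018). Kongyu131 control leaves did hold LNC_000364, at 0.0855, 0.472 and under 0.001 FPKM, and its difference there was not called (limma adjusted p = 0.244).

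At XLOC_025447, with 6 listed transcripts, the opposite calls were weak. The sum over the locus was 2.80 ± 0.265 FPKM in Kongyu131 and 1.64 ± 0.0799 FPKM in Dongnong422 (SD, n = 3 each), with no overlap, a log2 difference of −0.74 (interval −1.32 to −0.15) that was not called (limma adjusted p = 0.0692). LNC_000679 stood at 0.746, 0.205 and 1.23 FPKM in Kongyu131 and at 0.245 FPKM in Dongnong422 replicate 2, with the other Dongnong422 libraries under 0.001 FPKM, so the groups overlap. LNC_000681 stood at 0.243 FPKM in Kongyu131 replicate 2, with about 0.001 FPKM or less in replicates 1 and 3, and at 0.539, 0.292 and 0.454 FPKM in Dongnong422. Their log2 differences were −2.21 (limma adjusted p = 0.0285) and 1.77 (adjusted p = 0.0472). The call of LNC_000679 ended with the 6 cold libraries alone (adjusted p = 0.094) and without cold replicate 1 or 3 of Dongnong422 (0.1 and 0.0958) or of Kongyu131 (0.0976 and 0.0978). That of LNC_000681 ended with the 6 libraries alone (0.0938), with a pseudocount of 1 FPKM (0.071) and when any library but Kongyu131 control replicate 3 or cold replicate 2 was left out (0.0564 to 0.156). Without cold replicate 2 of Kongyu131 the differences were −2.81 and 2.36, and without that of Dongnong422 LNC_000679 was at −2.81. With 1 and 0.01 FPKM added they were −0.64 and −4.32 for LNC_000679 and 0.41 and 3.77 for LNC_000681.

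**Figure D4:**
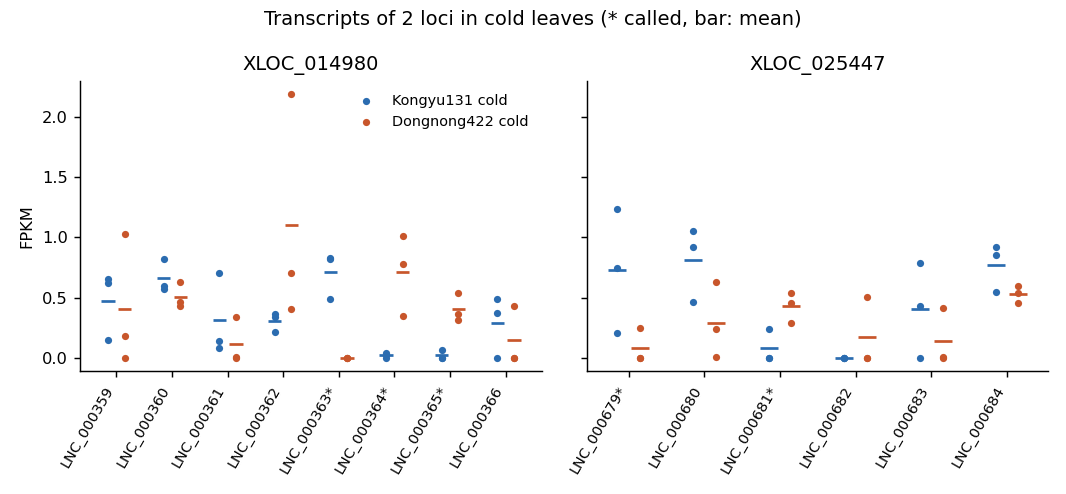
FPKM (vertical axis) of each listed transcript of the antisense loci XLOC_014980 and XLOC_025447 in the 3 cold libraries of Kongyu131 (blue) and of Dongnong422 (orange); points are libraries, bars are means and an asterisk marks a call. LNC_000363 is near 0 in cold Dongnong422 leaves and LNC_000364 near 0 in cold Kongyu131 leaves. Their means in cold leaves of the other cultivar are 0.711 and 0.712 FPKM.

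The same contrast in control leaves, made with the other 6 libraries on the same transcripts, called 165 (12.0%), 90 higher and 75 lower in Dongnong422. Of the 255 transcripts called in the cold, 71 were higher and 60 lower in Dongnong422 in both treatments, together 51.4% of the cold calls and 79.4% of the control calls. The 2 contrasts have no library in common, although the spread was estimated over both. With each treatment fitted alone, 115 were called in both in the same direction, 50.7% of 227 and 79.3% of 145. The filter used the cold libraries alone, so transcripts found mainly in control leaves could be left out. With no filter, 132 of 179 control calls were shared in the same direction. With the filter over all 12 libraries, 130 of 178 were. The direction in control leaves was that in cold leaves for 208 of the 255 (81.6%), against 803 of all 1370 (58.6%).

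Transcripts listed at 0 in 1 cultivar made up most of what both treatments called. Of the 108 called transcripts listed at 0 in all 3 cold libraries of a cultivar, 97 (89.8%) were called in the same direction in control leaves. Of the 147 other called transcripts, 34 (23.1%) were, and 102 (69.4%) had the same sign, against 55.0% of all transcripts not so listed. Those 147 also had smaller differences, as given above, and the part of this in the share was not tested. Across transcripts, which are not independent, the differences in cold and control leaves had a Pearson r of 0.77 and a Spearman rho of 0.35. Over the 1230 transcripts above 0 in at least 1 library of every group these were 0.21 and 0.14.

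For the transcripts called in both, the median size of the difference was 3.81 in cold and 4.12 in control leaves, and it was larger in the cold for 39 of those with the same direction. Those figures include transcripts listed at 0 and so depend on the pseudocount. LNC_000326, for example, stood at 4.37, 3.48 and 2.64 FPKM in Kongyu131 control leaves and at 0.301, 0.259 and 0.589 FPKM in Dongnong422 control leaves, a log2 difference of −2.93 beside −2.77 in the cold. For the 122 called in cold leaves alone, the median was 1.94 in the cold and 0.28 toward the same direction in control leaves, and 77 of them (63.1%) had the same sign. A call in the cold alone does not show that the difference arose with the treatment, and the test of the change itself called 4 of these 122 (67 had an unadjusted p under 0.05).

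**Figure D5:**
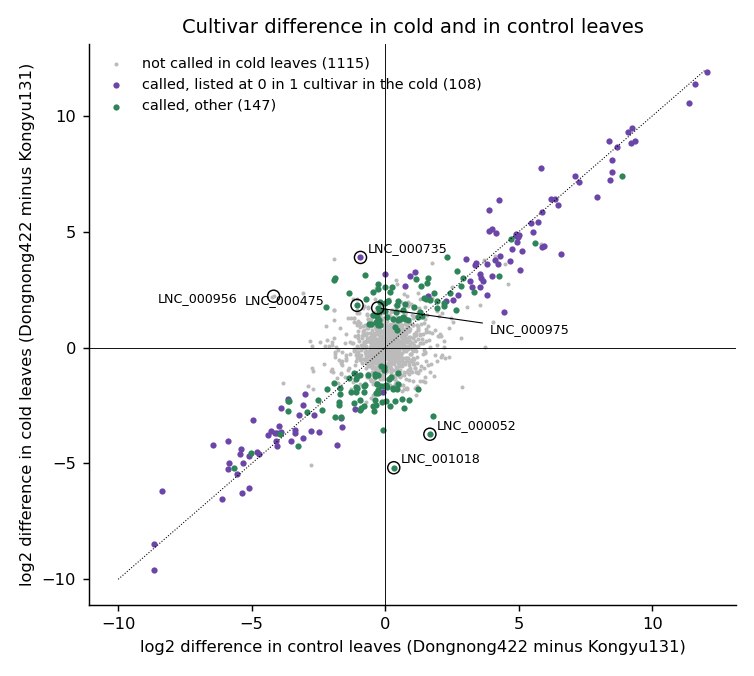
Log2 difference between the cultivars (Dongnong422 minus Kongyu131) in control leaves (horizontal axis) and in cold leaves (vertical axis); each point is 1 of 1370 transcripts, the dotted line marks equal differences and rings mark the 6 transcripts whose difference changed with treatment. Of the 108 called transcripts listed at 0 in 1 cultivar (purple), 97 were called in the same direction in control leaves. Of the 147 others (green), 34 were. The position of purple points, and of green points with low values, depends on the pseudocount.

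The cultivar difference itself changed between control and cold leaves for 6 of the 1370 transcripts (0.438%), and 5 of these were called in the cold. The lincRNA LNC_000475 (XLOC_018030) was 3.53-fold higher in cold Dongnong422 leaves, at 5.31, 4.65 and 5.49 FPKM against 1.23, 1.17 and 1.83 FPKM (log2 difference 1.82, interval 1.21 to 2.43, limma adjusted p = 0.000503). In control leaves it was lower in Dongnong422, at 1.89, 2.00 and 1.38 FPKM against 3.58, 2.82 and 5.10 FPKM (log2 difference −1.06, adjusted p = 0.0287). It was 1 of 2 transcripts called in opposite directions, and the other was LNC_000681, whose cold call was weak, as described. The groups are apart in both treatments for LNC_000475.

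In the other called transcripts a difference was called in the cold alone. The lincRNA LNC_000975 (XLOC_035698) stood at 1.86, 2.04 and 2.58 FPKM in cold Dongnong422 leaves and at 0.533, 0.538 and 0.700 FPKM in cold Kongyu131 leaves, 3.27-fold higher (log2 difference 1.71, interval 1.19 to 2.23, limma adjusted p = 0.000227), with −0.28 in control leaves. The lincRNA LNC_000735 (XLOC_027944) stood at 2.43, 1.78 and 0.587 FPKM in cold leaves of Dongnong422 and at 0 in all cold Kongyu131 libraries (adjusted p = 0.000111), although Kongyu131 controls held 0.738 to 1.44 FPKM. The antisense lncRNA LNC_000052 (XLOC_003075) had the opposite sign, with 0, 0 and 0.0978 FPKM in cold Dongnong422 leaves against 1.13, 1.25 and 2.73 FPKM in Kongyu131 (log2 difference −3.74, interval −5.16 to −2.32, adjusted p = 0.00132). In control leaves LNC_000052 was higher in Dongnong422, at 2.71, 1.33 and 2.98 FPKM against 1.18, 1.19 and 0.134 FPKM. That log2 difference of 1.67 was not called (limma adjusted p = 0.147). LNC_001018, described above, was the fifth, with a log2 difference of −5.19 in cold and 0.32 in control leaves. The cold libraries of the cultivars are apart for all of them. With 1 and 0.01 FPKM added the cold differences were −1.34 and −6.16 for LNC_000052 and 0.99 and 1.85 for LNC_000975, and the calls in the cold held under each setting that tested them.

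The count of 6 was unstable. By limma it was 0 when cold replicate 1 of Kongyu131 was left out and when control replicate 3 of Dongnong422 was (176 and 199 at an unadjusted p under 0.05, against 210 with all libraries), 2 without Dongnong422 cold replicate 2, 3 without cold replicate 2 of Kongyu131 or 3 of Dongnong422, 10 without Dongnong422 control replicate 2, and 21 without Kongyu131 cold replicate 3.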

How the data were processed

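The authors deposited, per library, a table of lncRNA transcripts with locus, class and FPKM, and the submitters' processing notes name TopHat2 2.0.9 and Cufflinks 2.1.1 without order or settings. Per the labels' protocols, ribosomal RNA was removed from Trizol extracts and libraries were made with a directional kit. The sources used here do not give the genome build, the annotation or the lncRNA filter. FPKM values are not counts, and ratios of low values between libraries showed no common step (at most 7.53% shared 1 ratio within 0.1%), so the depth is unknown and counting error could not be given. An empty row of 1 table was dropped. Of the identifiers, 0 matched the RefSeq gene table.

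Values were used unscaled as log2(FPKM + 0.1). A model with 4 group means over all 12 libraries was fitted with limma 3.58.1 in R 4.3.3 (variance trend, Benjamini-Hochberg adjustment over 1370 transcripts), and the contrasts were Dongnong422 minus Kongyu131 in cold leaves, in control leaves, and the change between them. The fitting procedure was tested on simulated data. The members, lists and tests were chosen with earlier results of these data known. Named transcripts were called, had a mean of at least 1 FPKM in the higher cultivar and no overlap between the cold libraries. Of 188 such transcripts, those with the largest difference in each direction were taken among all, those above 0 in all 6 libraries and per class, as were those of highest level and of smallest p. Added were the largest in each direction among those called in the cold whose difference changed with treatment, opposite calls at a locus or between treatments, and the most abundant transcripts not called. LNC_000975 (not among the largest), LNC_000956 (not called in the cold) and LNC_000365 fall outside the rule and were chosen after their values were seen. Alternatives were other pseudocounts, filters and scalings, no variance trend, a replicate block, the 6 libraries of a contrast alone, sums over loci, and each library left out.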

Additional observations from a re-analysis of the deposited data

Results flagged for a closer look

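The difference between the cultivars changed between control and cold leaves for 6 transcripts by limma's test of that change. Values are the log2 difference in cold leaves minus that in control leaves. It was −5.41 for LNC_000052 (SE 0.915, adjusted p = 0.027), with 0 in 2 of 3 cold Dongnong422 libraries, and −2.23 and −8.07 with 1 and 0.01 FPKM added. It was 2.88 for LNC_000475 (SE 0.394, adjusted p = 0.0166). It was 4.82 for LNC_000735 (adjusted p = 0.0166), a fitted value that depends on the pseudocount because all 3 cold Kongyu131 libraries were at 0 (1.76 with 1 and 8.15 with 0.01 FPKM added). It was 1.99 for LNC_000975 (SE 0.334, adjusted p = 0.027). It was −5.50 for LNC_001018 (SE 0.929, adjusted p = 0.027). It was 6.40 for LNC_000956 (SE 1.15, adjusted p = 0.039), a lincRNA of locus XLOC_035220, and 3.03 and 8.98 with 1 and 0.01 FPKM added. In control leaves its Dongnong422 libraries held 0, 0.166 and 0 FPKM against 2.41, 1.71 and 3.40 FPKM in Kongyu131 (log2 difference −4.18, adjusted p = 0.0038). With 1 FPKM added its change was not called (adjusted p = 0.0566), nor with 0.01 FPKM, as for LNC_000052 and LNC_001018 (0.0531 for all 3). LNC_000956 was not called in the cold, with 2.90, 8.53 and 0.888 FPKM in Dongnong422 against 0.271, 0.263 and 1.79 FPKM in Kongyu131 (adjusted p = 0.0903), and was called there with cold replicate 3 of either cultivar left out (0.0221 for Kongyu131, 0.0257 for Dongnong422). With Kongyu131 cold replicate 1 left out limma called 0 such changes (176 at an unadjusted p under 0.05), as it did with Dongnong422 control replicate 3 left out (199).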

How the results depend on the processing

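Over alternatives other than a higher filter, the count of 255 ran from 227 to 283, and with each library left out from 201 to 260 (109 to 146 higher and 92 to 122 lower in Dongnong422). Testing only transcripts with a mean of at least 1 FPKM called 122 in the cold, 75 of them higher and 47 lower. It called 75 in control leaves and 61 in both in the same direction. Fewer transcripts were tested there, and the part of this in the lower counts was not tested. A total of 167 of the 255 transcripts kept call and direction in all of the other 21 settings. In control leaves 143 to 165 were called, and 121 to 129 in both, when each library was left out. The number of transcripts whose difference changed with treatment was 16 and 3 with pseudocounts of 1 and 0.01 FPKM. It was 11 with quantile normalization, 10 with no variance trend, and 0 to 21 with each library left out. With sums over loci, the difference changed for 17 of 1012 loci. The cause of this variation was not tested. Deviations of libraries with the same replicate number correlated at −0.12 to 0.06 over 18 pairs. Of the 6 cold libraries, 3 correlated best with their own number. With 3 libraries per group this cannot settle whether the number pairs samples. With the replicate number as a block, 237 transcripts were called in the cold and 2 changed with treatment, and of the named transcripts LNC_000679 and LNC_000681 were no longer called (adjusted p = 0.0563 and 0.0628). Depth is unknown, and among the lowest of 4 bins of level the median half-width of the interval was 1.42 on the log2 scale, so 2-fold differences there were mostly not detectable.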
